A study of Mus musculus with 18 samples.

Results

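R-loops are resolved by enzymes that degrade, unwind or keep from forming the hybrid between a nascent RNA and its DNA template, and 9 mouse genes of this kind were followed here: Rnaseh1, Rnaseh2a, Rnaseh2b, Rnaseh2c, Aqr, Ddx5, Top1, Top3b and Rpa1. They were taken by name out of 55401 genes in the deposited mRNA-seq count files. The samples came from NIH/3T3, an established line of mouse embryonic fibroblasts, either wild type (WT) or with Xpo4 knocked out by CRISPR-Cas9 (KO). Xpo4 encodes exportin 4, a nuclear export receptor, and the study asked what happens to circular RNAs made of exons (ecircRNAs) and to R-loops when it is lost. Total RNA of 3 WT and 3 KO samples was sequenced for mRNA, and RNase R-treated RNA of whole cells, cytoplasm and nuclei was sequenced for circRNAs in 2 WT and 2 KO samples each. All groups share the parent line, and no further treatment is named in the labels. The KO cells are described as 1 constructed line, and the sources used here do not say that the samples were separate cultures, so every p-value below measures the spread between these samples, which may be technical.

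An R-loop forms when a transcript anneals back to the template strand behind the RNA polymerase and leaves the other DNA strand unpaired. RNase H enzymes cut the RNA of the hybrid, helicases peel it off, topoisomerases remove the negative supercoils that favour its formation, and replication protein A (RPA) coats the displaced strand. Hybrids that persist can block replication forks and break DNA, which is why R-loop genes overlap with genes of the Fanconi and BRCA repair pathways and of mRNA packaging.

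The mRNA-seq libraries held 16974062 to 22057323 read pairs counted in genes. The heading inside each mRNA-seq count file names an alignment of the opposite genotype to the sample's title. Titles were followed, and an exchange of these labels would turn every mRNA-seq direction given here round. Xpo4 itself did not settle this: it had 657, 614 and 685 counts in the libraries titled WT and 712, 504 and 687 in those titled KO, with a log2 fold change of 0.18 (standard error, SE, 0.11) and an edgeR adjusted p of 0.193. Whether the edit changes the count over the whole gene was not tested. The 3 KO libraries were less alike than the 3 WT libraries, and KO replicate 2 stood apart, with a chi-square per gene of 11.3 and 13.1 against the other KO libraries, where those gave 3.85 against each other and the WT pairs gave 3.19 to 5.37. All 10 fibroblast markers examined passed the filter on low counts. Of them 5 were called higher in KO and 4 lower (edgeR adjusted p under 0.05). The shares of all tested genes were 25.1% higher and 23.6% lower. By the smallest adjusted p, the higher ones included Thy1 (log2 fold change 0.86) and Vim (0.35), and the lower ones Lum (-1.58) and Col1a1 (-0.34). Of 5 epithelial markers none passed the filter and 2 were at 0 in every library. Of 5 leukocyte markers 2 were tested, Ptprc (-1.78) and Cd68 (-0.71 on the log2 scale). Ptprc had 108, 103 and 105 counts in WT and 32, 26 and 21 in KO. Cd68 had 140, 92 and 136 counts in WT and 52, 75 and 65 in KO. The summed level of the 5 markers was 9.99 to 12.5 CPM (counts scaled to a library total of 1e6) in WT and 4.77 to 5.69 in KO. Of 4 endothelial markers 1 was tested (Tek). The labels' extraction text speaks of peripheral blood, although the source is given as the cell line.

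Across the transcriptome, 7151 of 14688 tested genes differed between KO and WT at an adjusted p under 0.05 (edgeR quasi-likelihood test, Benjamini-Hochberg), which is 48.7% of them. Of the 9 R-loop genes, all 9 were tested and 3 differed: Aqr and Rnaseh2a were lower in KO and Rpa1 was higher. The share of all genes was 23.6% lower and 25.1% higher. The changes were small. The median of the absolute log2 fold change was 0.136 over the 9 genes and 0.276 over all tested genes, and 6 of the 9 had a log2 fold change below 0, with a median of -0.11 against -0.0029 over all genes. The ranges of the 3 WT and the 3 KO libraries did not overlap for 5 of the 9 (57.8% of all tested genes). In RNA from whole cultures, less RNA in every cell and fewer cells that express a gene cannot be told apart.

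**Figure D1:**
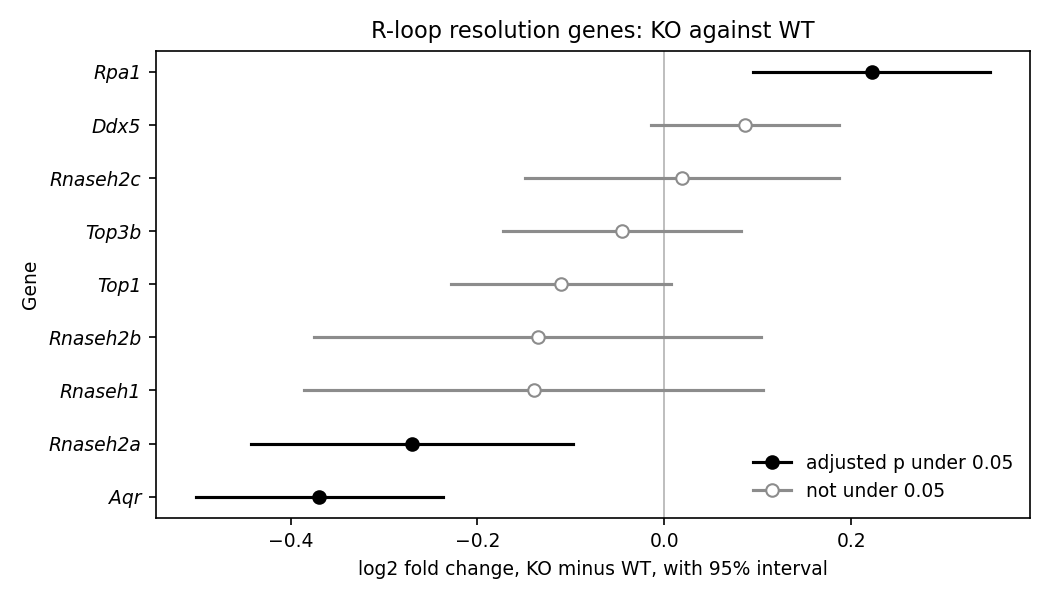
Log2 fold change of each of the 9 genes, KO minus WT, on the x axis with its 95% interval from edgeR, and genes on the y axis. Filled points passed an adjusted p of 0.05: Aqr at -0.37 and Rnaseh2a at -0.27 lay below 0 and Rpa1 at 0.22 above it, and the intervals of the other 6 genes include 0.

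The levels of the 9 genes, as fragments per kilobase of exon per 1e6 counted read pairs (FPKM), covered a wide range. In WT the order was Ddx5 (220 ± 2.53, SD, n = 3), Rpa1 (39.6 ± 1.42), Rnaseh2c (29.3 ± 1.11), Rnaseh2a (15.2 ± 0.527), Top1 (10.8 ± 0.309), Rnaseh1 (8.95 ± 0.916), Top3b (8.48 ± 0.439), Aqr (6.16 ± 0.214) and Rnaseh2b (2.68 ± 0.102). Only Rnaseh1 and Top3b among these neighbours had ranges that overlapped. The KO order was the same except that Top3b (8.22 ± 0.118) and Rnaseh1 (8.13 ± 1.26) changed places, again with overlapping ranges. Ddx5 was above 98.8% of tested genes in WT, and Rnaseh2b was above 32.5% of them. The exon length includes bases shared with other genes, 24.8% of those of Rnaseh2c with Kat5, so its level and place are uncertain.

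**Figure D2:**
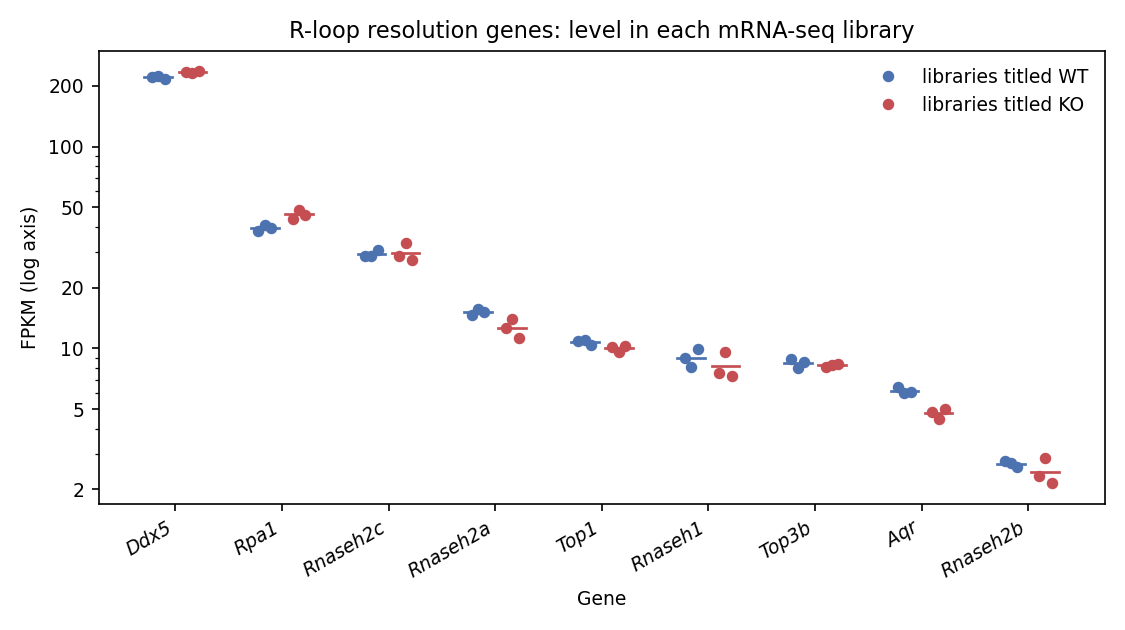
FPKM of the 9 genes on a log axis, 1 point per mRNA-seq library (3 titled WT in blue, 3 titled KO in red), with a line at the mean of each group. Ddx5 lies at 217 to 236 FPKM, Rnaseh2b lies at 2.14 to 2.84, and the red points lie apart from the blue ones for Aqr, Rnaseh2a and Top1 (below) and Rpa1 and Ddx5 (above).

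Of the RNase H genes, Rnaseh2a fell in KO, and the other 3 did not pass the test. Rnaseh2a (chr8:84956610-84969767, GRCm38) encodes the catalytic subunit of RNase H2, the enzyme that cuts hybrid RNA and also removes single ribonucleotides from DNA. Its FPKM was 14.7, 15.7 and 15.1 in WT and 12.6, 13.9 and 11.2 in KO. All KO libraries were below all WT libraries. The level fell by 17.1% (95% interval -26.4% to -6.54%), a log2 fold change of -0.27 (SE 0.0798) with an edgeR adjusted p of 0.0130. The call rested on single libraries: without WT replicate 2 the edgeR adjusted p was 0.0604 and without KO replicate 3 it was 0.0611. On the opposite strand, 5.04% of the exon bases of Rnaseh2a overlap Prdx2, and the counting did not use strand. On the same strand, 9.66% overlap Gm49661, which had 0 counts in every library.

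The genes of the other RNase H2 subunits did not pass the test, and their difference from Rnaseh2a was not tested. Rnaseh2b (chr14:62292589-62372992) encodes an accessory subunit that contacts PCNA, and its FPKM was 2.77, 2.71 and 2.57 in WT and 2.34, 2.84 and 2.14 in KO. The groups overlapped because KO replicate 2 had the highest value of all 6 libraries, and the log2 fold change was -0.14 (SE 0.111, 95% interval -0.37 to 0.10, edgeR adjusted p = 0.330). Without KO replicate 2 it was -0.26 with an edgeR adjusted p of 0.0452. Rnaseh2c (chr19:5601873-5607019), the other accessory subunit, had 28.8, 28.6 and 30.6 FPKM in WT and 28.7, 33.2 and 27.4 in KO. The highest and the lowest value were both KO libraries, and the log2 fold change of 0.019 (SE 0.0779, 95% interval -0.15 to 0.19, edgeR adjusted p = 0.859) took the opposite sign with upper-quartile scaling (-0.0059) and without KO replicate 2 (-0.067). Of the exon bases of Rnaseh2c, 24.8% overlap Kat5 on the opposite strand. Kat5 had 1092 to 1310 counts in WT and 901 to 972 in KO. Gm25994 and Mir3064, which share exon bases with Ddx5 on the same strand, had 0 counts in every library. Read pairs on shared exon bases may thus be missing from the Rnaseh2c count, and how they were counted was not tested.

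The ratio of Rnaseh2c to Rnaseh2a in FPKM was 1.96, 1.82 and 2.03 in WT and 2.28, 2.38 and 2.44 in KO. The KO libraries were all above the WT libraries, with means of 2.37 ± 0.0809 and 1.94 ± 0.107 (SD, n = 3). The ratio of Rnaseh2a to Rnaseh2b was 5.65 ± 0.311 in WT and 5.17 ± 0.239 in KO, with ranges that overlapped. No test was run on these ratios. FPKM used the full exon length, including bases shared with other genes, so the level of each ratio is uncertain.

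Rnaseh1 (chr12:28649602-28659589) encodes RNase H1, which acts without partner subunits on longer hybrids in the nucleus and in mitochondria. Its FPKM was 8.94, 8.04 and 9.87 in WT and 7.51, 9.58 and 7.31 in KO. KO replicates 1 and 3 were below every WT library and KO replicate 2 was above 2 of them, and the log2 fold change was -0.14 (SE 0.114, 95% interval -0.39 to 0.11, edgeR adjusted p = 0.327). Without KO replicate 2 it was -0.28 with an edgeR adjusted p of 0.0191. KO replicate 2 had the highest KO value for all 4 RNase H genes and for Rpa1, and the lowest KO value for Aqr and Top1. Without it, 5 of the 9 genes passed the test (Rnaseh1, Rnaseh2a, Rnaseh2b, Aqr and Rpa1) and 7397 genes did in all.

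Of the helicases, Aqr was lower in KO and had the largest change of the 9 genes. Aqr (chr2:114101170-114187024) encodes aquarius, a helicase of the spliceosome that binds introns and can unwind RNA:DNA hybrids. It had counts of 1504, 1385 and 1581 in the WT libraries and of 1017, 946 and 1007 in the KO libraries, and its FPKM was 6.41, 6.01 and 6.07 against 4.83, 4.47 and 5.03. The groups did not overlap. Aqr fell by 22.6% (95% interval -29.4% to -15.1%), a log2 fold change of -0.37 (SE 0.0614, edgeR adjusted p = 0.000254). It passed the test under every alternative tried and without each library in turn, with log2 fold changes of -0.39 to -0.31 and -0.40 to -0.32. Among 9697 genes with a mean of at least 10 CPM, those whose log2 CPM followed Aqr most closely over the 6 libraries were Smo, Med24 and Cacna1c (Pearson r of 0.999 each). The 6 libraries fall into a WT and a KO cluster, and 914 of these genes had an r over 0.95 with Aqr.

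Ddx5 (chr11:106780355-106789185) encodes a DEAD-box helicase with roles in transcription, splicing and hybrid unwinding. It had 220, 223 and 217 FPKM in WT and 233, 233 and 236 in KO. The KO libraries were all above the WT libraries, yet the log2 fold change was only 0.087 (SE 0.0468, 95% interval -0.014 to 0.19) and did not pass the test (edgeR adjusted p = 0.144). Its close relative Ddx17 had 108 ± 3.81 FPKM in WT and 91.9 ± 10.4 in KO (n = 3) and was lower (log2 fold change -0.24, edgeR adjusted p = 0.0136).

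Neither topoisomerase of the set passed the test. Top1 (chr2:160645888-160722764) encodes the type I enzyme that relaxes supercoils around the transcribing polymerase. Its FPKM was 10.9, 11.0 and 10.4 in WT and 10.1, 9.59 and 10.2 in KO. The groups did not overlap, and the log2 fold change of -0.11 (SE 0.0547, 95% interval -0.23 to 0.0075) had an edgeR adjusted p of 0.112. Top3b (chr16:16870736-16892990), whose product can act on RNA as well as DNA, had 8.86, 8.00 and 8.57 FPKM in WT and 8.10, 8.23 and 8.34 in KO. Its groups overlapped, and its log2 fold change was -0.045 (SE 0.0589, 95% interval -0.17 to 0.082, edgeR adjusted p = 0.549). For both genes DESeq2 gave no call either, and neither had an unadjusted p under 0.05.

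Rpa1 was the single gene of the set that was called higher in KO. It lies at chr11:75298166-75348324 and encodes the largest subunit of RPA, the complex that binds single-stranded DNA and recruits RNase H1 to R-loops. Its FPKM was 38.2, 41.0 and 39.4 in WT and 43.9, 48.7 and 45.9 in KO. All KO libraries were above all WT libraries, by 16.6% (95% interval 6.81% to 27.3%), a log2 fold change of 0.22 (SE 0.0588, edgeR adjusted p = 0.00685), and the call held under every alternative and without each library. The genes of the other RPA subunits gave no call with edgeR or with DESeq2, and 0 of 2 had an unadjusted p under 0.05. Rpa2 had a log2 fold change of 0.027 (95% interval -0.12 to 0.17) and Rpa3 one of 0.11 (95% interval -0.070 to 0.30). The ratio of Rpa1 to Rpa2 in FPKM was 3.19 ± 0.151 in WT and 3.65 ± 0.216 in KO (SD, n = 3), with no overlap. That of Rpa1 to Rpa3 was 1.24 ± 0.0328 in WT and 1.35 ± 0.0913 in KO (SD, n = 3), with ranges that overlapped, and neither ratio was tested.

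The surroundings of the genes differed. Among the tested genes within 2 Mb on either side, the median log2 fold change was 0.066 around Aqr (20 genes, of which 4 lay below Aqr), 0.037 around Rnaseh2a (76 genes, 16 below it) and 0.081 around Rpa1 (47 genes, 32 below it). The surroundings of Top1 stood out. Its 9 tested neighbours had a median of -0.32, and 8 of the 9 lay below Top1. Of these neighbours 7 were called lower and 0 higher, beside 23.6% and 25.1% of all tested genes. Around the other 5 genes the median was between -0.095 and 0.050. Whether copy number differs between the lines was not tested.

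**Figure D3:**
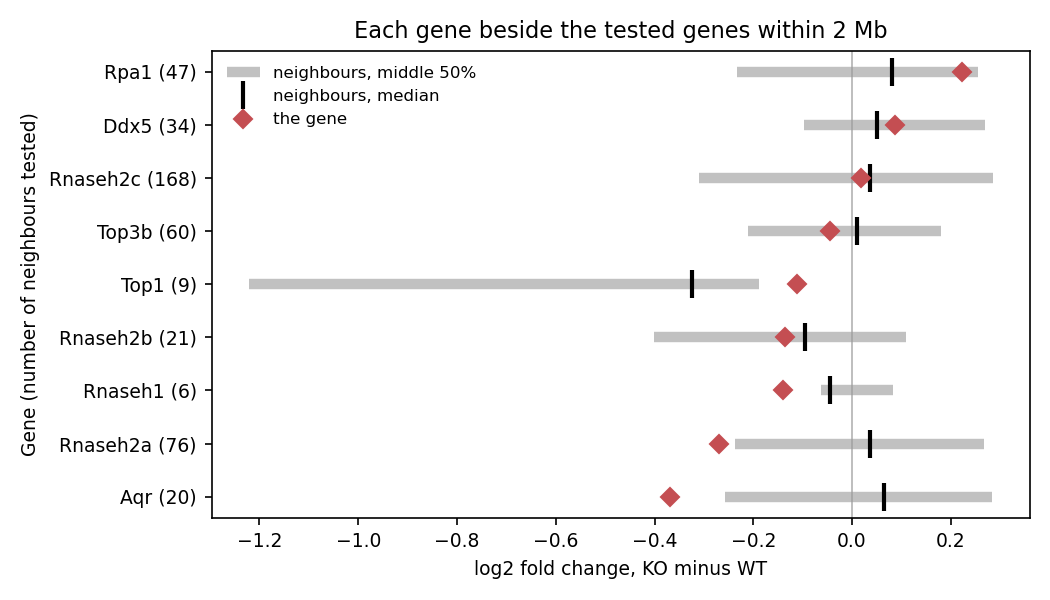
Log2 fold change, KO minus WT, of each of the 9 genes (red diamond) beside the median (black bar) and the middle 50% (grey band) of the tested genes within 2 Mb, with their number in brackets on the y axis. Aqr, Rnaseh2a and Rnaseh1 lie to the left of their grey bands, and Top1 lies to the right of a band whose median is -0.32.

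Beyond the 9 genes, 50 other genes of R-loop biology in 6 lists were examined, and 29 of them (58%, beside 48.7% of all tested genes) passed the test. Of the 50, 2 were higher and 27 lower in KO, beside 25.1% and 23.6% of all tested genes. Their median log2 fold change was -0.21. The lists were put together with earlier results of these data known. Of 19 other R-loop helicases 15 passed, 13 lower and 2 higher, with a median of -0.27, beside the same shares of all tested genes. Ddx39b, the UAP56 helicase that packages nascent mRNA for export and removes hybrids, had the smallest adjusted p of these lists. It had 143, 148 and 153 FPKM in WT and 80.6, 81.3 and 81.4 in KO, a change of -45.2% (95% interval -49.3% to -40.8%, edgeR adjusted p = 2.04e-08), and the groups lay far apart. Its paralogue Ddx39a had a log2 fold change of -0.47 (SE 0.0527, edgeR adjusted p = 7.87e-06). The 2 helicases that rose were Ddx21, a nucleolar enzyme, at 0.21 (SE 0.0555, edgeR adjusted p = 0.00722), and Ddx19a, which acts at the nuclear pore, at 0.22 (SE 0.0629, edgeR adjusted p = 0.0119).

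Partners of the 9 genes were examined next, beside 48.7% of all tested genes called and 23.6% called lower. Of 4 genes whose products sit with aquarius in the intron-binding complex, 2 were lower: Xab2 with a log2 fold change of -0.51 (SE 0.0565, edgeR adjusted p = 7.33e-06) and Isy1 with -0.33 (SE 0.0745, edgeR adjusted p = 0.00266). The other two, Ppie at 0.0040 and Zfp830 at 0.14, did not pass the test. Of 6 further topoisomerases and partners of TOP3B, 2 were lower, with a list median of -0.19: Top2a, the replication-linked type II enzyme, at -0.23 (edgeR adjusted p = 0.00310), and Fmr1, a partner of TOP3B, at -0.16 (edgeR adjusted p = 0.0485). Without WT replicate 1, WT replicate 2, KO replicate 1 or KO replicate 2, 1 of them passed.

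Of 11 genes of mRNA packaging, splicing and termination, 4 were lower and 0 higher, with a median of -0.12, beside 48.7% of all tested genes called and 23.6% called lower. Sf3b1, a core splicing factor of the U2 particle, had a log2 fold change of -0.33 (SE 0.0544, edgeR adjusted p = 0.000228), and Thoc1, of the THO complex that coats nascent mRNA, had -0.35 (SE 0.0795, edgeR adjusted p = 0.00252). Without WT replicate 2, 2 of these genes passed. The splicing factors Srsf1 (-0.12, edgeR adjusted p = 0.0539) and Sf3a1 (-0.11, edgeR adjusted p = 0.106) did not pass. Of 8 Fanconi, BRCA and excision repair genes 6 were lower and 0 higher, with a median of -0.41, beside the same shares of all tested genes. Brca2, which acts in homologous recombination, had -0.68 (SE 0.0671, edgeR adjusted p = 2.52e-06), and Fancd2, which is ubiquitinated at stalled forks, had -0.50 (SE 0.0889, edgeR adjusted p = 0.000401).

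Markers of proliferation moved with these lists. Of 12 such genes, 9 were lower and 1 higher in KO, beside 23.6% and 25.1% of all tested genes. Their median was -0.24, and their summed level was 2813 to 2827 CPM in WT and 2383 to 2454 CPM in KO. Mcm6 and Mcm5, of the replicative helicase, had log2 fold changes of -0.54 and -0.42 (edgeR adjusted p = 3.63e-06 and 2.67e-05). Cdk1, the mitotic kinase, went the other way (0.57, edgeR adjusted p = 2.36e-06), and Pcna had -0.021 (edgeR adjusted p = 0.813). Top2a stands in this list and in that of the topoisomerases. The part of proliferation in the values of Aqr, Rnaseh2a, Rpa1 and the lists was not tested.

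**Figure D4:**
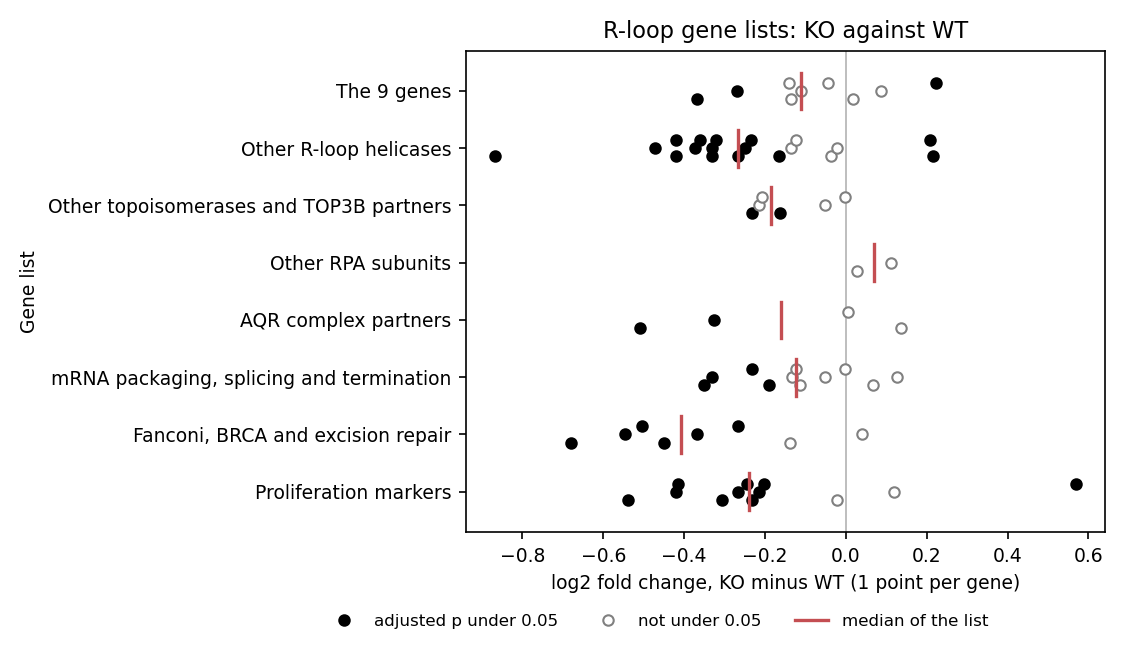
Log2 fold change, KO minus WT, of each gene (1 point) by list, filled where the adjusted p was under 0.05, with a red line at the median of the list. The 9 genes have a median of -0.11, other helicases -0.27, Fanconi, BRCA and excision repair genes -0.41 and proliferation markers -0.24, and the lowest point is Ddx39b at -0.87.

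CircRNAs with both ends inside the 9 genes were few: 5 in the whole-cell lists, 5 in the cytoplasmic lists and none in the nuclear lists, which hold 1166 circRNAs at a depth of 2189 to 4383 junction reads. They came from Rnaseh1, Rnaseh2a, Rnaseh2b, Aqr and Top1. All start and end on annotated exon edges, all their bases are coding, and AG precedes and GT follows each circle in the genome. The 7 with at least 10 reads in a fraction are shown as their backsplice junctions, read from GRCm38 on the strand of the gene, with the last 20 bases of the downstream exon in lower case and the first 20 bases of the upstream exon in capitals. The 2 circles of Top1 shown here share no exon. A further circle of Top1 in whole cells, of exons 8 to 14, had 8 reads and shares exons with both.
circRnaseh1 (chr12:28652025-28655684, plus strand, exons 2 to 4): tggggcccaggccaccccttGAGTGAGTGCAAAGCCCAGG
circRnaseh2a (chr8:84959776-84960104, minus strand, exons 5 to 6): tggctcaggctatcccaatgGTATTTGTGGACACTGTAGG
circRnaseh2b (chr14:62346568-62353637, plus strand, exons 2 to 5): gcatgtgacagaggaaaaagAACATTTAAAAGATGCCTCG
circAqr (chr2:114125891-114130776, minus strand, exons 20 to 23): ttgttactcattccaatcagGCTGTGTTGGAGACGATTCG
circAqr (chr2:114142988-114151583, minus strand, exons 10 to 15): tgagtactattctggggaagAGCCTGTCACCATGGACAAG
circTop1 (chr2:160690277-160698239, plus strand, exons 7 to 9): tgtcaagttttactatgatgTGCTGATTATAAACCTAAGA
circTop1 (chr2:160704783-160712788, plus strand, exons 12 to 14): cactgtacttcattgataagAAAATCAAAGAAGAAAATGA

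The circRNA of Rnaseh2b was the only one of these listed in both whole cells and cytoplasm. It joins exon 5 to exon 2 and is 375 bases long when spliced, 45.3% of them G or C. It had 11 and 8 junction reads in the WT whole-cell libraries and 3 and 4 in the KO ones, and 9 and 12 in the WT cytoplasmic libraries against 1 and 1 in the KO ones. Every KO library was below every WT library in both fractions. It is the best covered circle of the set, and so 60 bases on either side of its junction are shown, those of exon 2 onward in capitals.
circRnaseh2b, around the junction: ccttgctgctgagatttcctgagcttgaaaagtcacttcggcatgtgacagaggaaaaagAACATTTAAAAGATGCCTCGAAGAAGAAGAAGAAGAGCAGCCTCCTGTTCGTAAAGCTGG

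In whole cells, the circAqr of exons 10 to 15 had 5 junction reads in each WT library and none in either KO library. The 95% counting interval of its KO to WT ratio reached up to 0.464. With a floor of 3 reads entered for the KO group, the level was 3.20-fold lower in KO, a value that is not a bound. The circTop1 of exons 7 to 9 had 1 read in each WT library and 5 and 7 reads in the KO libraries. That of exons 12 to 14 had 7 and 3 reads in the WT libraries against 1 and 0 in the KO libraries. Circles of the same gene lay on opposite sides, at depths of 50341 to 58165 junction reads per library. In the cytoplasm, circRnaseh1 had 2 and 1 reads in the WT libraries against 8 and 3 in the KO libraries, circRnaseh2a had 0 and 2 against 6 and 6, and the circAqr of exons 20 to 23 had 1 and 2 against 6 and 4. Relative to all junction reads, the KO to WT ratios were 5.14 (95% counting interval 1.36 to 28.7) for circRnaseh1, 8.41 (1.87 to 77.4) for circRnaseh2a and 0.134 (0.0152 to 0.546) for circRnaseh2b.

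These circRNA differences cannot be told apart from how the lists were made. No circRNA of any fraction is listed in only 1 of the 4 libraries, none has fewer than 4 reads in whole cells or 5 in the cytoplasm, and in these 2 fractions the genotype with more reads always has at least 4. The genotype with fewer reads has 3 or fewer for 56.8% of whole-cell and 61.2% of cytoplasmic circRNAs, most often 2. Over all tested circRNAs, counts of a WT and a KO library had a Spearman correlation of -0.23 to -0.12 in the cytoplasm and -0.088 to 0.045 in whole cells, and replicates 0.80 to 0.86 and 0.70 to 0.71. What a selection on the reads of 1 genotype would do to these differences was not tested. With edgeR, 4 of 4 tested cytoplasmic circRNAs of the 9 genes passed an adjusted p of 0.05, beside 53.5% of all 8917, and none did with DESeq2 (5.08% of all). In whole cells 0 of 4 passed with edgeR (0 of all 8903), although 4 of 4 had an unadjusted p under 0.05 (38.2% of all). Among these 4, DESeq2 gave an adjusted p only for circRnaseh2b (0.999), so the others could not be called. It called 8 of all 8903 (0.0899%), where circRNAs without an adjusted p count as not called. No direction is drawn from these counts.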

How the data were processed

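Total RNA of NIH/3T3 cells was sequenced for mRNA (3 WT, 3 KO) and, after RNase R, for circRNAs (2 WT, 2 KO in each of 3 fractions). For mRNA, the authors deposited counts of read pairs per gene from HISAT2 and featureCounts (version 2.0.0) on GRCm38 (mm10), without strand and without normalization. For circRNAs, the authors deposited counts of junction reads predicted by find_circ. The methods speak of TPM, but the values are whole numbers with unequal totals and were used as counts. The filter behind the circRNA lists is not given in the sources used here. Groups and replicate numbers came from the sample titles. No columns of other series were used (0 found).

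Of 55401 gene IDs, 55141 were matched to symbols through GENCODE and RefSeq tables of GRCm38. Ddx39a stands there as Ddx39. FPKM was computed from counts, exon length and counted read pairs. Genes passing the low-count filter of edgeR (filterByExpr) were tested by quasi-likelihood (edgeR 4.0.16, R 4.3.3, TMM, adjusted p threshold 0.05). CircRNAs needed 10 summed reads, and absent ones were entered as 0. Alternatives were other scalings, DESeq2 1.42.0, no filter, limma 3.58.1 on log2(FPKM + 0.1) and log2(FPKM + 1), the replicate number as a block, and each library left out. Standard errors were |log2 fold change| divided by the root of the F statistic. The scripts were tested on simulated data.

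The genes and lists were chosen with earlier results of these data known. Named were the 9 genes, Xpo4, the 2 genes of each other list with the smallest adjusted p in each direction, the genes Ddx39a, Ddx39b, Srsf1, Sf3a1 and Sf3b1, the 3 genes most like Aqr and the most abundant circRNA per gene and fraction. The circTop1 circles of exons 12 to 14 and 8 to 14 were reported outside this rule. Ddx17, Pcna, Rpa2, Rpa3, Ppie and Zfp830 were added after their values were seen. Intervals on read counts cover counting error only. Sequences were read from the RefSeq GRCm38 genome at the deposited positions, with exons numbered in GENCODE M21 transcripts.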

Additional observations from a re-analysis of the deposited data

How the results depend on the processing

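Of 256 alternative values, 233 kept their direction and call or, for counts, stayed within 1.5 times the reported one. The count of genes called ranged from 6662 to 7696 over the alternatives and from 6143 to 7397 with a library left out, and the R-loop genes called were 3 under every alternative and 2 to 5 with a library left out. With a library left out, the log2 fold change was -0.28 to -0.060 for Rnaseh1, -0.35 to -0.18 for Rnaseh2a, -0.26 to -0.041 for Rnaseh2b and -0.067 to 0.084 for Rnaseh2c. Rnaseh2c reversed with upper-quartile scaling (-0.0059) and without KO replicate 2 (-0.067). The cause of these shifts was not tested. The topoisomerase list had 1 call with library totals and with limma on FPKM at either pseudocount, and 1 to 2 with a library left out. The packaging list had 2 to 6 calls with a library left out. Of the circRNAs, whole cells had 3 calls with library totals and 3 with the replicate number as a block, and 0 with a library left out. The cytoplasm had 1 with no scaling, 0 with DESeq2 and 0 to 2 with a library left out. Depth limits these circRNAs, none of which had more than 26 reads over the 4 libraries of a fraction.

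Same-numbered libraries had deviations from their group means that correlated between -0.089 and 0.062 in mRNA-seq and between -0.052 and 0.040 in circRNA-seq. These values gave no sign of pairing by replicate number. They cannot exclude it, with only 3 mRNA-seq libraries per genotype and 2 circRNA libraries per genotype and fraction. With the replicate number as a block, 7124 genes and 3 of the 9 R-loop genes were called, and apart from the whole-cell circRNAs no count above moved by over 1.5 times.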
